A study of Mus musculus with 2 samples.

Results

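The cells described here are epithelial cells of mouse small intestinal organoids with low sums of both S-phase and mitosis genes. They were chosen by their own counts, in 2 steps. A pool was first formed of barcodes with at least 10000 UMIs (unique molecular identifiers, each standing for 1 captured RNA molecule) and at most 20% mitochondrial UMIs. Pool cells also held under 5 UMIs per 10000 of the enteroendocrine gene Chgb, under 2 of the stem cell gene Lgr5 and under 6 of the absorptive genes Apoa1, Apoa4, Fabp1 and S100g together. The members of the group were the pool cells below the pool's median in 2 sums. The S sum adds Mcm3, Mcm6, Ung, Cdt1 and Clspn, which act when DNA replication is prepared and carried out. The M sum adds Ube2c, Cenpa, Ccnb2, Nusap1, Cdca3 and Aurkb, which act in mitosis. Of 21806 barcodes, 3353 passed the depth and mitochondrial limits, 1809 formed the pool and 290 were members, which is 16.0% of the pool (95% Clopper-Pearson interval 14.4 to 17.8%) and 8.65% of the cells past the limits.

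The study's title concerns melatonin, prostaglandin E2 and the emergence of regenerative epithelial cells driven by the transcriptional co-activator YAP. The labels give 1 control and 1 melatonin-treated library, with cells of 3 organoid lines pooled into each on culture day 3, and they name neither a mouse strain nor a genotype. The deposited files of both libraries were identical byte by byte, so there is 1 matrix, whose barcodes end in 1 (set 1, 12364 barcodes) or 2 (set 2, 9442 barcodes). No label ties a suffix to a treatment, and control was therefore not compared with melatonin. Values are given for set 1 and then set 2, whose order has no meaning for treatment. The matrix counts as 1 sample without replicates: no test was possible, and all intervals (exact Poisson for levels, Clopper-Pearson for shares, both 95%) cover counting error only. Levels are UMIs per 1000000 UMIs summed over the cells of a group (CPM), and 29 barcode sequences occurred with both suffixes, 1 of them a member.

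The intestinal crypt is the pocket of the gut lining in which stem cells and their daughters divide. Dividing progenitors replicate their DNA in S phase and separate it in mitosis, and cells that stop dividing become absorptive cells or secretory cells such as goblet, Paneth, enteroendocrine and tuft cells. Cells between divisions, cells at rest and cells that have begun to differentiate all have few S-phase and mitosis transcripts. Most replicative histone genes are switched on in S phase, and their messages end in a stem-loop in place of a poly(A) tail. Some histone genes also give spliced or polyadenylated messages outside S phase, which are the kind that a library primed on poly(A) captures.

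Hist1h2bc and Hist1h2ac, named as markers of the group, encode an H2B and an H2A histone and are neighbours that are read away from each other. In the GENCODE annotation on GRCm38 there are 250 bases between the 2 starts on chromosome 13. The annotated Hist1h2bc transcript has 2 exons, and that of Hist1h2ac has 1. The first sequence below is the 239 bases between the RefSeq start of Hist1h2ac and the annotated start of Hist1h2bc, so it is upstream of both. Cdk1, the kinase that drives entry into mitosis, and Top2a, the topoisomerase that untangles chromosomes, were among the 12 genes lowest in the members. Their upstream sequences are printed as examples only. All 3 come from the RefSeq promoter table (build GRCm38.p6), on the minus strand, 5′ to 3′, and end at the base before the RefSeq start. Capitals mark CCAAT on either strand in all 3, ATTTGCAT and TATAAA on either strand in the histone sequence, and TTTGAA on either strand in the other 2. No marked motif overlaps another.
Hist1h2ac, chr13:23683960-23684198: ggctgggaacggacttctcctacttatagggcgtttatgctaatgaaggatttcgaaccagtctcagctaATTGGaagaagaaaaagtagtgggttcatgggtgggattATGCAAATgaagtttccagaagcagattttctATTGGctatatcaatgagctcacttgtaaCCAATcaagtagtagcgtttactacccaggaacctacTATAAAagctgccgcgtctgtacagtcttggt
Cdk1, chr10:69352913-69353062: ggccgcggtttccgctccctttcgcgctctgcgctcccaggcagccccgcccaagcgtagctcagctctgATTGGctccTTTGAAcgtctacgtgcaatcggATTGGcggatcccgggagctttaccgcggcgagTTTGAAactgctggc
Top2a, chr11:99024190-99024339: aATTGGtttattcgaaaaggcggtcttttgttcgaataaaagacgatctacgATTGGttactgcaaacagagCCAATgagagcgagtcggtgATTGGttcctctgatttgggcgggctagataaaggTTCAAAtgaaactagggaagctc

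CCAAT is the sequence bound by the factor NF-Y, TTTGAA is the core of the cell cycle homology region of many mitosis genes, and ATTTGCAT is the octamer of many H2B promoters. In the 150 bases before the start, CCAAT on either strand was in 25.3% of 27025 RefSeq promoters. It was in 26 of the 32 matched promoters of a list of 34 G2 and mitosis genes outside the rule, in 32 of 37 matched promoters of replicative histone genes and in 13 of 18 of polyadenylated or replacement histone genes. TTTGAA was in 9.24% of all promoters, in 12 of those 32 promoters of G2 and mitosis genes, in 11 of the 37 replicative histone promoters and in 5 of those 18. ATTTGCAT was in 1.02% of all promoters, in 5 of the 37 replicative histone promoters, in 4 of the 18 and in none of the 32. TATAAA was in 8.08% of all promoters, in 15 of the 37, in 5 of the 18 and in 1 of the 32. Of 22 matched promoters of S-phase genes outside the rule, 14 held CCAAT, 2 held TTTGAA and 0 held either of the other 2 motifs. A match describes letters only and is not a shown binding site. The build used for the deposited counts is not given in the sources used here.

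The limits that fixed membership were an M sum of 11.6 and an S sum of 1.05 UMIs per 10000, the medians of the pool. Among cells below the other limit, the nearest M sums inside and outside were 11.62 and 11.65, and the nearest S sums were 1.046 and 1.052. The members' M sums had quartiles of 0.913, 4.28 and 8.91, so the group runs from cells without mitosis transcripts to cells just under the typical pool cell. In 37 members M was 0, in 78 it was under 1 and in 152 it was under 5. S rested on little: 187 of 290 members held fewer than 2 UMIs of the 5 S genes, and 99 held 0. Neither sum separated the members from the rest by a gap, as the plot of both sums shows.

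**Figure D1:**
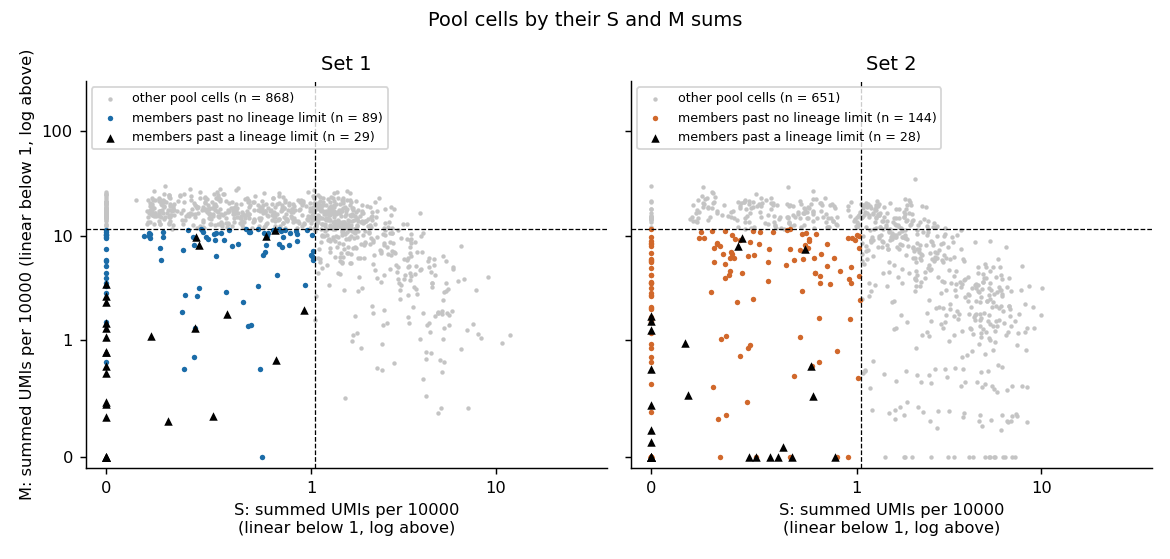
Each point is a pool cell, with its summed S genes on the x axis and summed M genes on the y axis (UMIs per 10000, linear below 1 and logarithmic above), for set 1 (left) and set 2 (right). Dashed lines are the pool medians of 1.05 and 11.6, grey points are the other pool cells, coloured points are members past no lineage limit and black triangles are the 57 members past one. The triangles lie mostly at low M.

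Members made up 11.97% of the pool in set 1 (118 of 986 cells, 10.0 to 14.2%) and 20.9% in set 2 (172 of 823, 18.2 to 23.8%). The 2 intervals do not overlap. When the medians were taken within each set, the shares were 17.1% and 16.6%; limits set within each set leave about equal parts of each set's cells below either limit by construction, so this does not locate the difference. Depth moved with membership: members had a median of 25271.5 UMIs and 4272 genes, the other pool cells 37019 UMIs and 5279 genes. The share of members was 44.2% in pool cells of 10000 to 20000 UMIs, 31.1% from 20000 to 30000, 5.997% from 30000 to 40000 and 8.36% at 40000 or more. Set 2 was higher at each of these 4 depths (45.2 against 42.9%, 35.1 against 25.7%, 7.96 against 4.86% and 10.7 against 6.55%), with intervals that overlapped each time. How far depth accounts for membership was not tested. Median mitochondrial shares were close, at 9.35% in members and 8.83% in the others, and ribosomal protein genes took 31.9% in both.

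**Figure D2:**
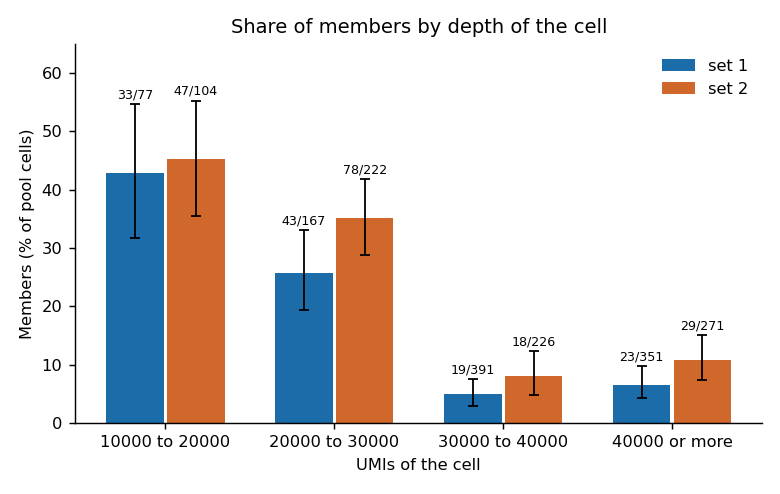
Bars give the percentage of pool cells that are members, by UMIs of the cell, in set 1 (blue) and set 2 (orange), with 95% Clopper-Pearson intervals and the number of members over pool cells above each bar. Shares fall from 42.9% and 45.2% in the shallowest cells to 6.55% and 10.7% in the deepest.

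The working name of the group calls its cells crypt-like. Part of the members showed profiles of other kinds of cells, which does not tell whether they lay in crypts. The members are therefore called here by the rule. At 10 or more UMIs per 10000 of a lineage's marker genes, a limit set after the values were seen, 57 of 290 members (19.7%, 15.2 to 24.7%) showed a differentiated or revival-like profile, against 52 of 1519 other pool cells (3.42%, 2.57 to 4.47%). The members past a limit were 29 in set 1 and 28 in set 2. The goblet limit was passed by 40 members, that of enteroendocrine genes by 23, that of Ghrl, which encodes the hormone ghrelin, by 9, and that of Paneth genes without Defa24 and Itln1 by 15. Itln1 was spread over the pool, which was not shown for Defa24. With the full Paneth list the Paneth limit was passed by 85 members (29.3%) and 371 other pool cells (24.4%). With that list in place of the shortened one, 124 members (42.8%, 37.0 to 48.7%) and 397 others (26.1%, 23.9 to 28.4%) passed a limit. Revival-like genes, expressed by injured or fetal-like epithelium, passed it in 12 members, tuft genes in 3 and microfold cell genes in 2. Of these 57 cells, 29 passed more than 1 limit, 17 of them those of goblet and enteroendocrine genes together. All 15 past the shortened Paneth limit also passed the goblet limit, and all 9 past the Ghrl limit also passed the enteroendocrine limit. Passing more than 1 limit therefore need not mean more than 1 lineage. Doublets were not called. No member passed the immune or mesenchymal limit (0 of 290, upper bound 1.26%). The 233 members past no limit were 89 in set 1 and 144 in set 2.

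Those 57 cells stood apart in other measures too. Their median depth was 19690 UMIs against 25960 in the other 233 members. Ribosomal protein genes took a median of 23.9% of their UMIs against 32.3%. Malat1, a nuclear long RNA, had a median of 121 per 10000 UMIs against 34.6. They were concentrated among the cells with the fewest mitosis transcripts: 37 of the 78 members with M under 1 passed a lineage limit.

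Between members and the other pool cells, 101 of 7022 genes were at least 1.5-fold higher in both sets (1.44%) and 166 were at least 1.5-fold lower in both (2.36%). This count and all ratios below describe a contrast that the S and M sums themselves created, and the 17 genes of the rule were left out of it. Ratios are log2 of CPM + 1. The median over all tested genes was -0.0041 in set 1 and -0.034 in set 2. When cells past a lineage limit were left out on both sides, 5 genes were higher in both sets (0.0712%) and 102 were lower (1.45%), of which 5 and 97 were among the genes called before. Without those cells, 96 genes lost the higher call and 69 lost the lower one. The cells left out were picked by high counts of lineage genes. For those genes and genes expressed with them, that choice itself works towards losing the higher call. With the full Paneth list in the limits, 5 genes were higher and 111 lower.

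The 12 highest genes by the rule were Ghrl, S100a6, Gcg, Lgals3, Lyz1, Clps, Msln, 2210407C18Rik, Fcgbp, S100a11, Fxyd3 and Spink4. Of these, Ghrl, S100a6, Gcg, Lyz1, Msln, Fcgbp and Spink4 also set the lineage limits, so the direction of their change without the cells past a limit is set by that choice. Ghrl stood at 2344 and 1188 CPM in members against 6.43 and 5.49 in the other pool cells, and 2 members held at least 50% of its UMIs. Gcg, which encodes proglucagon, was at 75.1 and 64.4 against 4.03 and 8.10 CPM, with 87.1% of its UMIs in 3 members. Lyz1, the lysozyme of Paneth cells, was at 262 and 113 against 39.5 and 18.5 CPM. Without the cells past a lineage limit, Lyz1 was at 7.04 against 6.72 in set 1 and 1.97 against 4.20 CPM in set 2. Spink4 and Fcgbp, products of goblet cells, and Msln, a surface protein of revival-like epithelium, were likewise carried by few cells, with 61.4%, 46.9% and 56.3% of their UMIs in 3 members each. Fxyd3, a regulator of the sodium pump, was spread more widely: 150 members had a UMI of it and the 3 highest held 15.1%. Without the cells past a lineage limit its log2 ratios were -0.28 and 0.18.

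**Figure D3:**
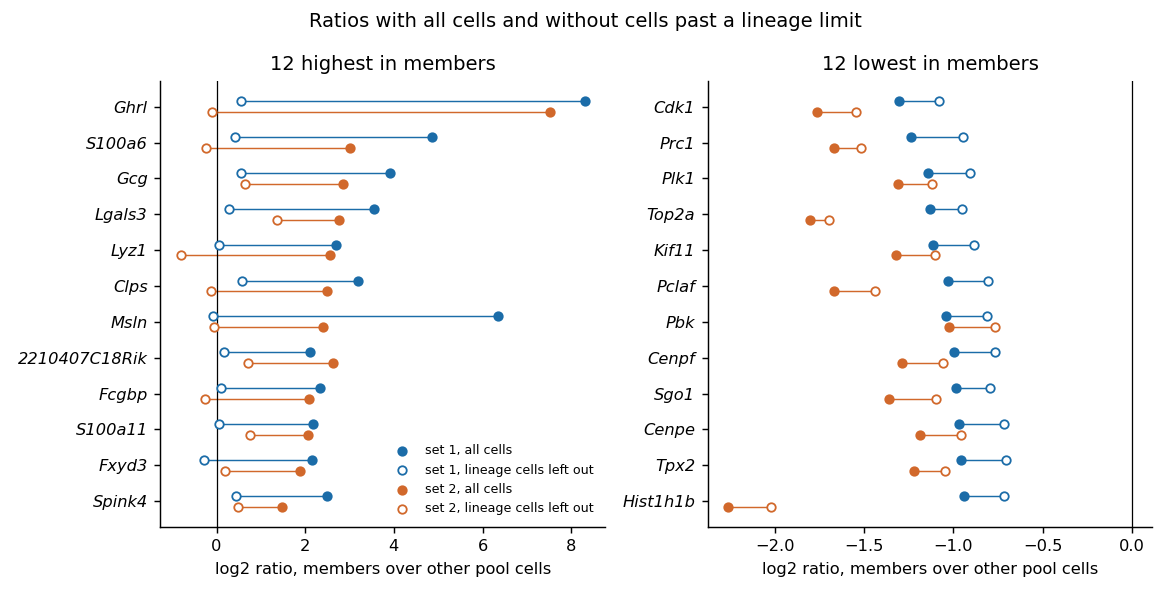
Log2 ratios of members over the other pool cells for the 12 highest (left) and 12 lowest (right) named genes, in set 1 (blue) and set 2 (orange). Filled points use all cells and open points leave out cells past a lineage limit on both sides; Ghrl moves from 8.30 and 7.52 to 0.55 and -0.11, which its own limit fixes in direction, and Cdk1, which set no lineage limit, moves from -1.30 and -1.76 to -1.08 and -1.55.

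The 12 lowest genes were Cdk1, Prc1, Plk1, Top2a, Kif11, Pclaf, Pbk, Cenpf, Sgo1, Cenpe, Tpx2 and Hist1h1b. Cdk1, whose upstream sequence holds 2 copies each of CCAAT and TTTGAA, was at 83.1 and 50.3 CPM in members against 206 and 173 in the other pool cells. Top2a was at 82.5 and 60.8 against 182 and 215 CPM. Thinned to 10000 UMIs per cell, 31.1% of members were expected to hold a Cdk1 UMI against 76.1% of the others. Prc1, which bundles the microtubules of the central spindle, was at 37.7 and 24.95 against 90.1 and 81.4 CPM. Plk1, the polo-like kinase of mitosis, was at 35.6 and 24.2 against 79.9 and 61.4 CPM, and the motor Kif11 was at 30.9 and 21.3 against 67.9 and 54.8. Pclaf, a partner of the replication clamp, was at 116 and 69.8 against 237 and 224 CPM. Levels of these genes were reduced in members, not absent.

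By list, 28 of 34 measured G2 and mitosis genes outside the rule were at least 1.5-fold lower in both sets and 0 were higher, with medians of -0.82 and -1.15. Their summed level was 3556 and 2991 CPM in members against 5923 and 5246 in the others. Of 30 S-phase genes outside the rule, 23 were lower and 0 higher (medians -0.73 and -1.29); Mcm2, a subunit of the replicative helicase, was at 8.01 and 14.9 against 17.3 and 31.5 CPM. Of 14 G1 cyclins and kinases, 2 were lower, the S-phase entry genes Ccne1 and E2f1. Ccnd2, a cyclin of early G1, was at 302 and 436 against 240 and 318 CPM and did not reach 1.5-fold. Without the cells past a lineage limit, 19 of the 34 and 16 of the 30 were at least 1.5-fold lower in both sets. All 34 and all 30 still had lower values in both sets, with medians of -0.63 and -0.97 for the 34 and -0.61 and -1.15 for the 30. These genes are co-expressed with those of the rule, so the counts describe the selection.

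Cell cycle inhibitors and genes linked to quiescence were higher in part: 7 of 30 were at least 1.5-fold higher in both sets and Cdkn2c was lower. Of all 7022 tested genes, 1.44% were higher and 2.36% lower. Cdkn1a, the inhibitor p21, was at 200 and 158 CPM in members against 63.4 and 99.3. Cdkn1c, the inhibitor p57, was at 28.5 and 18.1 against 6.67 and 3.8 CPM. Without the cells past a lineage limit the log2 ratios of Cdkn1a were 0.16 and -0.02, and of the 7 genes only Cdkn2b stayed at least 1.5-fold higher in both sets, at 1.47 and 0.81. Cdkn1b, the inhibitor p27, was at 31.8 and 30.0 against 48.2 and 36.6 CPM. Of 17 p53 target genes 3 were higher with all members (Cdkn1a, Trp53inp1 and Plk2) and 0 without the lineage cells. Without those cells only 0.0712% of all tested genes were higher, so 0 of 17 is near the share of all genes.

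Hist1h2bc was the only one of the 4 markers at least 1.5-fold higher in both sets. Its level was 143 CPM in members of set 1 (130 to 156) and 176 in set 2 (164 to 188), against 68.6 (65.8 to 71.4) and 91.6 (87.8 to 95.5) in the other pool cells. The log2 ratios were 1.05 and 0.93 with all cells, and 0.63 and 0.83 without those past a lineage limit. A Hist1h2bc UMI was found in 225 members and the 3 highest held 12.8% of its UMIs, and 36 members held at least 50% of them. With medians taken within each set the ratio in set 1 was 0.48, and against cells with both sums high only the ratio in set 2 was 0.43, both under 1.5-fold. After thinning to 10000 UMIs, 58.9% of members were expected to hold one, against 37.3% of the other pool cells, 64.6% of Chgb-high cells, 57.4% of absorptive cells and 32.1% of Lgr5-high cells.

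Set beside the other groups of the matrix, Hist1h2bc in members was close to its level in the absorptive and Chgb-high cells outside the pool. It was at 138 and 173 CPM in the 716 absorptive cells and at 141 and 167 in the 516 Chgb-high cells. In the 312 Lgr5-high cells it was at 53.9 and 68.6. Within the pool it was at 52.6 and 84.9 in the 614 cells with only S high, at 87.6 and 82.9 in the 614 with only M high, and at 45.6 and 130 in the 291 with both high. The last value, in set 2, is the one that comes nearest to the members. Hist1h2bc was at 291 and 272 in the members past a lineage limit, and at 106 and 155 in the other 233 members.

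The 3 other named markers differed less. Hist1h2ac, the neighbour of Hist1h2bc across the printed stretch, was at 23.4 and 12.9 CPM in members against 17.8 and 15.7, with log2 ratios of 0.38 and -0.27, so its direction differed between the sets. It rested on 79 and 64 UMIs in members, and its thinned shares were 12.7% in members and 12.4% in the others. Hist1h1c, a linker histone, was at 51.0 and 53.7 against 38.3 and 41.0 CPM (log2 ratios 0.41 and 0.38), and against cells with both sums high only the ratio in set 2 was -0.23. Klf2, a transcription factor linked to quiescence in lymphocytes and endothelium, was at 45.7 and 46.3 against 33.1 and 37.2 CPM. Without the 3 members highest in Klf2 in each set its log2 ratios were 0.10 and -0.02. Klf2 was higher outside the pool, at 162 and 116 CPM in Chgb-high cells and at 73.9 and 69.6 in absorptive cells. With all cells and the stated limits, neither Hist1h2ac, Hist1h1c nor Klf2 reached 1.5-fold in both sets. Klf2 did so with both sums below the lower tertile (0.97 and 0.87) and in cells of 20000 to 30000 UMIs (0.78 and 1.23), and Hist1h1c with the tertiles (1.08 and 0.64).

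**Figure D4:**
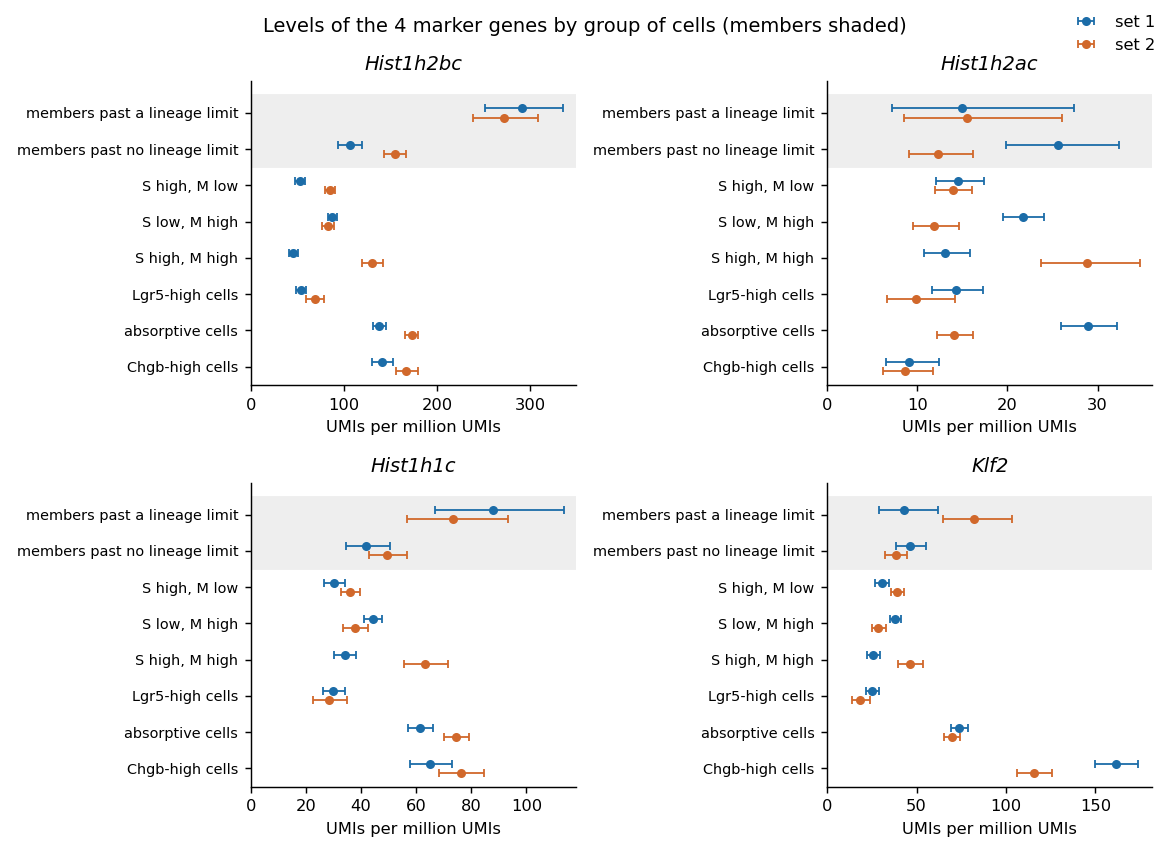
Levels of Hist1h2bc, Hist1h2ac, Hist1h1c and Klf2 (CPM, x axes from 0) in 8 groups of cells for set 1 (blue) and set 2 (orange), with exact 95% Poisson intervals for counting error; members are shaded. Hist1h2bc in members past no lineage limit, at 106 and 155, lies above the groups with one sum high in both sets, while the intervals of Hist1h2ac overlap across several groups.

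No other histone gene of the lists was at least 1.5-fold higher in both sets. Of 40 measured replicative histone genes, 19 were at least 1.5-fold lower in both sets and 0 were higher (medians -0.65 and -0.98). The share of all 7022 tested genes that were lower was 2.36%. Hist1h1b, a linker histone of dividing cells, was at 28.8 and 13.9 CPM in members against 56.3 and 70.3. Of 20 polyadenylated or replacement histone genes, 0 were higher and 3 were lower, namely Hist1h2bj, Hist2h2ac and H2afx. H1f0, the linker histone known for accumulating in resting cells, was at 204 and 230 against 215 and 223 CPM. H3f3b, a replacement H3, was at 1390 and 1450 against 1472 and 1583. Near-identical histone copies can share reads, so single histone genes of the replicative clusters are uncertain.

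Within the members, Hist1h2bc varied with the M sum, in a way that depended on the cells past a lineage limit. Over all 290 members it was at 250 CPM (228 to 274) with M under 1, at 243 (220 to 267) with M from 1 to 5 and at 96.5 with M from 5 to the limit. In set 1 the lowest group was then the highest, at 378 against 228, and in set 2 the middle group was, at 251 against 213. Among the 233 past no lineage limit, the 41 cells with M under 1 had 116 CPM (94.6 to 140), the 61 cells with M from 1 to 5 had 250 (225 to 276) and the 131 cells with M from 5 to the limit had 99.9 (90.7 to 110). The middle group was then the highest in both sets, at 228 and 258 CPM against 80.4 and 119 in the group nearest the limit. Only 5 of these cells in set 1 had M under 1, and their level of 140 CPM (80.04 to 227) overlapped that of the middle group (185 to 279). In the same 3 groups Top2a was at 13.1, 10.7 and 112 CPM and Cdk1 was at 11.99, 10.7 and 108. Mki67, the antigen Ki-67 of dividing cells, was at 11.99, 37.4 and 113. The 131 cells nearest the limit had the highest levels of all 3 genes. These 3 genes are co-expressed with the M genes that set the bins, so their order describes the split. In the middle group the M sum came from Ube2c (86.2 CPM), Cdca3 (79.5), Cenpa (66.8) and Ccnb2 (55.4), with Nusap1 at 2.004 and Aurkb at 0.668. The bins were set after the values were seen.

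Nupr1, a stress-induced chromatin protein, was at 418, 334 and 125 CPM in these 3 groups and was lowest nearest the limit in both sets. Klf2 was at 79.6, 64.8 and 25.5 CPM, with 52.5, 73.7 and 40.7 in set 1 and 83.4, 61.3 and 10.5 in set 2. It was likewise lowest nearest the limit in both sets. In set 1 the interval there (32.6 to 50.095) overlapped those of both other groups (19.3 to 114 on 6 UMIs, and 50.065 to 105). Krt19, a keratin of simple epithelium, was at 744, 813 and 504 CPM in set 1 and at 1483, 909.5 and 657 in set 2. It too was lowest nearest the limit in both sets. The order of the 2 other groups differed between the sets, with intervals that overlapped in set 1 (594 to 920 and 729 to 904). Hist1h2ac was at 20.7, 10.7 and 19.3 and did not follow Hist1h2bc. The median depth of the 3 groups was 22241, 25118 and 29520 UMIs, so depth rose with M.

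**Figure D5:**
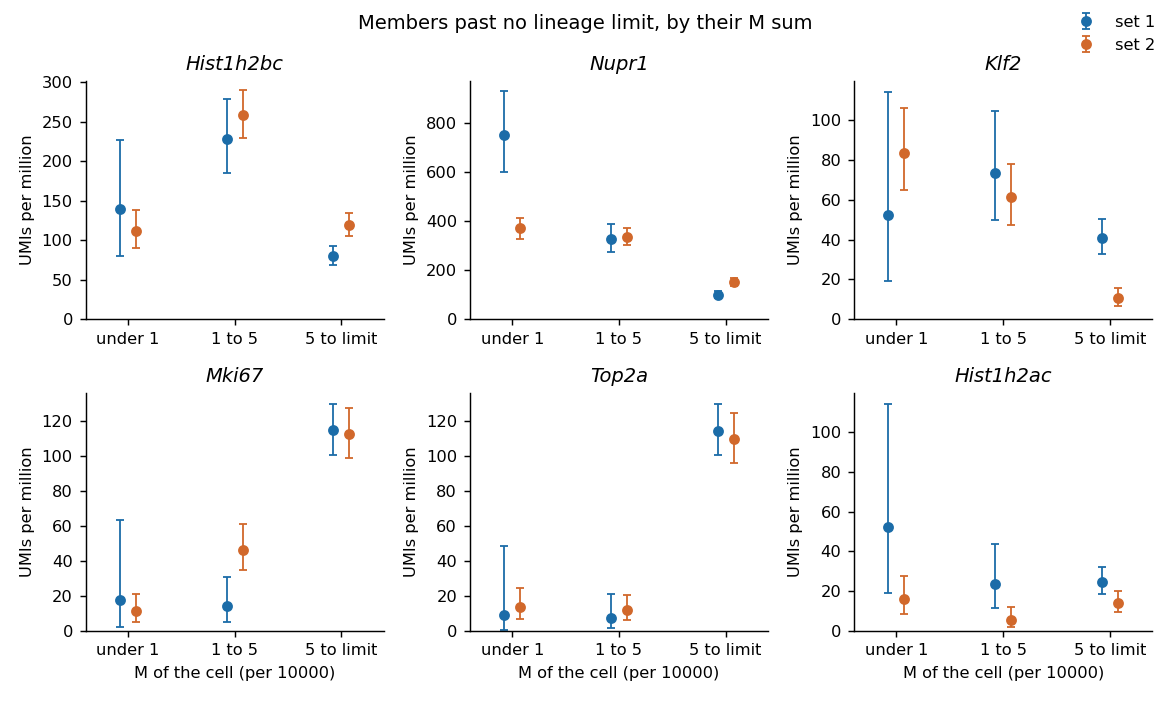
Levels (CPM, y axes from 0) of 6 genes in the 233 members past no lineage limit, split by their M sum (under 1, 1 to 5, and 5 to the limit of 11.6 per 10000), for set 1 (blue) and set 2 (orange) with exact 95% Poisson intervals. Hist1h2bc is highest at M from 1 to 5 in both sets, though the interval of the 5 set 1 cells with M under 1 overlaps it. Top2a, which is co-expressed with the M genes, is high only in the group nearest the limit, which describes the split.

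With cells past a lineage limit left out, the 5 genes at least 1.5-fold higher in both sets, among the 7022 at 10 CPM or more over the pool, were Sprr2a3, Nupr1, Ctrb1, Hist1h2bc and Maff. Nupr1 was at 163 and 243 CPM in these members against 76.8 and 147 in the other pool cells (log2 ratios 1.08 and 0.72). Sprr2a3, a small proline-rich protein of squamous-like epithelium, was at 35.2 and 59.5 against 9.64 and 21.0 CPM, but 3 members held 51.1% of its UMIs among all members. Maff, a small Maf transcription factor, had log2 ratios of 0.87 and 0.67, and Ctrb1, a chymotrypsinogen, 0.77 and 0.82. Below 10 CPM over the pool, the list genes past 1.5-fold in both sets were Cdkn2b, Smad7 (1.03 and 0.90), an inhibitor of TGF-beta and BMP signalling, and Tnfaip2 (0.83 and 1.11), which rested on 3 and 7 UMIs in these members.

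Few crypt genes passed in both sets, where 1.44% of all 7022 tested genes were higher and 2.36% lower. Of 18 measured crypt stem and Wnt target genes, Ephb3, a receptor that positions cells along the crypt, was at least 1.5-fold higher in both sets and 0 were lower. Without the cells past a lineage limit 0 of the 18 were higher, and the log2 ratios of Ephb3 were 0.23 and 0.70. Slc12a2, a salt transporter of crypt cells, was at 262 and 286 CPM in members against 300 and 333 in the others. Sox9, a crypt transcription factor, was at 77.8 and 89.4 against 72.6 and 79.4, and Axin2, a Wnt target, at 38.6 and 32.4 against 43.8 and 35.0. Of 5 genes of slow-cycling or plus-4 cells, 0 passed in either direction; Hopx was at 210 and 158 against 218 and 176 CPM. Genes of these lists past 1.5-fold in 1 set only included Olfm4 (log2 ratios 0.09 and -0.87) and Cdca7 (-0.31 and -0.67).

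Genes of the lineage lists were often higher with all members. Of the measured genes, 12 of 13 revival-like and regenerative, 8 of 12 enteroendocrine, 5 of 8 goblet, 4 of 6 Paneth and 5 of 16 YAP target genes were at least 1.5-fold higher in both sets with all members. Without the cells past a limit the count was 0 in each of these 5 lists. Among all 7022 tested genes, 1.44% were higher with all members and 0.0712% without those cells. Clu, the marker of revival stem cells, was at 20.5 and 30.8 CPM in members against 0.182 and 4.50, and Anxa1 at 38.3 and 69.4 against 0.455 and 10.6. For both, the log2 ratio without those cells differed in sign between the sets (0.59 and -0.69 for Clu, -0.21 and 0.48 for Anxa1). The YAP targets past 1.5-fold were F3, Amotl2, Ajuba, Igfbp3 and Myof; Cyr61 was at 21.96 and 50.3 against 13.0 and 43.1 CPM. Genes of the revival-like, enteroendocrine, goblet and Paneth lists also set the lineage limits, so these counts without the cells are fixed in that direction.

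Tuft genes had 1 of 6 higher (medians 0.89 and 0.37), secretory progenitor genes 1 of 6 (0.98 and 0.22) and microfold genes 2 of 4 (0.94 and 0.65). Nuclear transcripts had 0 of 5 higher (1.05 and 0.013). Smaller shares of the lists that follow passed 1.5-fold than of the revival-like, enteroendocrine, goblet, Paneth and YAP target lists. The 15 ribosome biogenesis genes had lower values in both sets with all members, but 0 reached 1.5-fold (medians -0.18 and -0.22), and without the cells past a lineage limit 12 were lower in both sets and 1 was higher (medians -0.11 and -0.12); Ncl, the nucleolar protein nucleolin, was at 836 and 832 CPM against 1041 and 1097. Of 14 immediate early genes 2 were higher with all members, Egr3 and Ier3, and 0 without the cells past a lineage limit. The same shares over all 7022 tested genes were 1.44% and 0.0712%. No heat shock gene of 10 and no Notch pathway gene of 10 passed in either direction. Of 6 measured prostaglandin and melatonin genes, Ptgs2, the inducible cyclooxygenase of prostaglandin synthesis, was higher in both sets, at 3.56 and 6.24 CPM in members against 0.0607 and 0.909 (12 and 31 UMIs against 2 and 22). The members past no lineage limit held 0 of these UMIs. The receptor gene Ptger4, for prostaglandin E2, was at 6.83 and 6.84 against 6.34 and 8.76 CPM. Mtnr1a, a melatonin receptor gene, had 2 UMIs in members of set 1 and 0 in set 2, and Mtnr1b had none in either.

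In cells of 20000 to 30000 UMIs Hist1h2bc, Nupr1, Klf2 and Top2a kept their direction in both sets, while 2210407C18Rik turned to a log2 ratio of -0.19 in set 1. The set 1 medians of the tuft (-1.35), secretory progenitor (-0.38) and microfold (-0.20) lists were also reversed there. Depth was restricted and not matched: the 43 and 78 members had median depths of 23457 and 25271.5 UMIs and the 124 and 144 others 26602.5 and 26197.5. Hist1h2bc was at 194 and 216 CPM against 75.7 and 85.4. Nupr1 was at 231 and 393 against 73.8 and 154, and Klf2 at 68.3 and 73.3 against 39.4 and 30.6. Top2a was at 72.1 and 41.2 against 164 and 181 CPM, and Hist1h2ac at 37.5 and 14.2 against 15.0 and 17.2.

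Among members, 220 of 7022 genes were at least 1.5-fold higher in set 2 than in set 1 (3.13%) and 258 were lower (3.67%). Most of the largest differences came from few cells. Nts, the hormone neurotensin, was at 352 CPM in set 1 and 0.402 in set 2, with 99.6% of its UMIs in 3 members. Defa24, a Paneth defensin, was at 182 and 878 CPM, with 90.2% in 3 members. The named genes higher in set 2 also included Defa17, Ly6d, Muc2, Il1rn and Sprr2a3, and those lower in set 2 Cck and Clps. Without the 5% of pool cells with the most UMIs and the barcodes found under both suffixes, left out together, the log2 ratio turned to -3.62 for Ly6d and -1.30 for Il1rn, and at 20000 to 30000 UMIs to -1.55 for Defa17, -3.14 for Defa24, -2.71 for Muc2 and 0.44 for Cck.

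A few differences between the sets were spread over many members. Adh1, an alcohol dehydrogenase found in 102 members, was at 55.8 and 12.9 CPM, and in the other pool cells at 47.1 and 9.29. Sis, the brush border enzyme sucrase-isomaltase found in 212 members, was at 199 and 66.8, and in the others at 170 and 68.5. Olfm4, a marker of crypt stem cells, was at 45.7 and 1.41 CPM in members and at 42.7 and 3.39 in the others. These 3 genes differed between the sets in the same direction in members and in the rest of the pool. Hist1h2ap, a replicative H2A, was at 60.8 and 16.9 in members and at 110 and 85.1 in the others. Hist1h2bc differed less than 1.5-fold between the sets (log2 ratio 0.30).

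The 10 genes that varied most among members, by variance over mean at 10000 UMIs, were Ghrl, Spink4, Defa24, Cck, Tff3, Nts, Malat1, S100a6, Gcg and Fcgbp. All but Malat1 and the S100 gene are products of secretory cells. For Hist1h2bc this ratio was 3.61, against 1823 for Ghrl and 1.5 for Hist1h2ac, where 1 would be counting noise alone.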

How the data were processed

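Single-cell libraries of mouse small intestinal organoids were made with a droplet 3′ kit (10x Genomics, version given in the labels) on a NovaSeq instrument, per the labels' protocols. The deposited matrix holds UMI counts per gene and barcode, as whole numbers that the authors did not normalize; the submitters' processing notes name Cell Ranger 3.1.0, STAR 2.7.3a and bcl2fastq 2.20.0. Genome build, annotation and cell filter are not given in the sources used here. The reference list of gene names held 30934 of the 31053 gene identifiers. The matrix holds 194068573 UMIs.

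The group was formed by the stated rule with Python 3.11.15, numpy 2.4.6, scipy 1.17.1 and pandas 2.3.3. Counts were summed over cells, scaled to 1000000 and compared as log2(CPM + 1), for genes at 10 CPM or more over the pool; a list gene was measured at 10 UMIs or more. Shares of cells with a UMI are expectations after thinning to 10000 UMIs, which lost no cell. Named genes were the 12 highest and 12 lowest ratios in the set nearer to no change (50 CPM or more, Poisson intervals apart in both sets), 6 each way between the sets, the 10 most overdispersed genes at 20 CPM or more, the markers and members of gene lists on which a count turned. The code for the folds was checked on simulated counts with known changes; this gives no error for the counts of genes in these cells. The members and lists were chosen with earlier results of these data known. Doublets were not called; an alternative left out the 5% of pool cells with the most UMIs together with the barcodes found under both suffixes.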

Additional observations from a re-analysis of the deposited data

How the results depend on the processing

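There was 1 matrix, no replicate and no test, and the S sum rested on few UMIs per cell. No paired analysis was possible because each label group has 1 sample and both hold the same files. Alternatives on lineage cells (with the shortened or the full Paneth list), on cells of 20000 to 30000 UMIs and on the 3 highest members were chosen after seeing the data. Other than what an alternative's own construction shows (fewer cells or more genes), the cause was not tested.

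Members were 4.56% of the pool in set 1 and 11.1% in set 2 with both sums below the lower tertile, 17.1% and 16.6% with medians within each set, and in set 1 9.62% without lineage cells and 8.73% with the full Paneth list in their limits. Genes higher in members numbered 258 with tertiles, 63 at 20000 UMIs or more, 58 without the deepest cells and shared barcodes, 63 with a pseudocount of 10 CPM, 543 with no minimum CPM, 5 without lineage cells under either Paneth list and 47 at 20000 to 30000 UMIs. Genes lower numbered 581 with tertiles, 59 with medians within sets, 82 at 20000 UMIs or more, 83 with the pseudocount of 10, 102 without lineage cells and 265 at 20000 to 30000 UMIs. Between the sets, higher and lower genes numbered 449 and 705 with tertiles, 90 and 91 with the pseudocount of 10, 998 and 1629 with no minimum, and 490 and 599 at 20000 to 30000 UMIs; 554 were lower with medians within sets, and 464 higher without lineage cells by the full Paneth list.

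Reversed log2 ratios without lineage cells were -0.11 for Ghrl, -0.23 for S100a6, -0.81 for Lyz1, -0.12 for Clps and -0.26 for Fcgbp in set 2, -0.28 for Fxyd3 in set 1, and -0.088 and -0.062 for Msln. For 2210407C18Rik in set 1 the ratio was -0.19 at 20000 to 30000 UMIs and -0.010 without its 3 highest members, and for Spink4 in set 2 it was -1.23 without them. Between the sets the ratio of Ly6d became -3.62 and of Il1rn -1.30 without the deepest cells and shared barcodes. At 20000 to 30000 UMIs it became -4.19 for Ly6d, -3.16 for Il1rn, -1.55 for Defa17, -3.14 for Defa24 and -2.71 for Muc2. The ratio of Muc2 was -0.48 without lineage cells, and that of Cck was 0.21 at 20000 UMIs or more, 0.69 without lineage cells and 0.44 at 20000 to 30000 UMIs. List medians reversed without lineage cells for goblet genes in set 2 (-0.087), Paneth genes (-0.21 and -0.085), and tuft (-0.26), enteroendocrine (-0.095), secretory progenitor (-0.16) and revival-like genes (-0.045) in set 1. In set 1 the tuft median was -0.48 at 20000 UMIs or more and -1.35 at 20000 to 30000, where secretory progenitor genes were at -0.38 and microfold genes at -0.20. Hist1h2bc was higher in members in both sets under all 13 alternatives run on single genes, and at least 1.5-fold under 12 of 13 in each set (0.48 to 2.02 in set 1, 0.43 to 1.33 in set 2). Klf2 reached 1.5-fold in both sets with tertiles (0.97 and 0.87) and at 20000 to 30000 UMIs (0.78 and 1.23), and Hist1h1c with tertiles (1.08 and 0.64).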
